A study of Mus musculus with 6 samples.

Results

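Kinesins are the motor proteins that carry cargo along microtubules, and the genes described here are those that the array annotation names Kif or Kifc with a number. A probe set was a member if it carried exactly 1 gene symbol of that form. This gave 45 probe sets of 42 genes, out of 41345 probe sets on the array, 23521 of which carried a single symbol. Of the 42 genes, 33 passed the filter on dim probe sets, which asked for a log2 value of 5 or more on 3 or more arrays, and were tested with 15586 other genes. The other 9 genes were too dim to be tested and are accounted for below.

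The mutant samples were retinas of 3 male mice at postnatal day 17 with the genotype Chx10Cre+/-;Atrx flox/y, called Atrx cKO here. They were compared with 3 male Cre-negative littermates of the same age, Chx10Cre-/-;Atrx flox/y, called wildtype. Both groups carry the floxed Atrx allele, so they differ by the Cre transgene, and an effect of the transgene and one of losing Atrx cannot be told apart. Chx10Cre is active in retinal progenitors, so the deletion is aimed at the neurons and Muller glia they give rise to and not at vessels, microglia or pigment epithelium. Each sample was total retina RNA pooled from both eyes of 1 mouse, after removal of the lens, on Affymetrix gene arrays. By the design text, amacrine and horizontal cell loss peaks at this age in the Atrx cKO.

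Most kinesins walk towards the plus end of a microtubule. Kinesin-1 and kinesin-3 motors carry vesicles and mitochondria down axons, kinesin-2 builds and feeds the cilium from which the photoreceptor outer segment is made, and a further set works on the spindle of dividing cells. Several members also shorten microtubules instead of moving along them. In a mature retina nearly all neurons are postmitotic, so the transport and ciliary members serve the resident cells.

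Only Kif19a and Kif22 passed the test over all genes (limma, Benjamini-Hochberg adjusted p under 0.05), and both rose in Atrx cKO retina. Kif19a, a kinesin that trims the microtubules of cilia, was 1.93-fold higher, and Kif22, a motor that binds chromosome arms, was 1.53-fold higher. Among the members that did not pass, the neuronal kinesin-1 heavy chain Kif5a had the smallest p, with a log2 change of -0.42. The 2 called genes are 6.06% of the 33 tested, beside 0.826% of all 15619 genes called in either direction and 0.48% called as higher in Atrx cKO. No member was called as lower, beside 0.346% of all genes.

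An unadjusted p under 0.05 was reached by 12 members (36.4%), beside 13.5% of all genes. Of these, 6 members were above 0, beside 6.99% of all genes, and 6 were below, beside 6.5%. Among those above 0, Kif20b passed the filter on dim probe sets through its Atrx cKO values. The groups did not overlap for 11 members (33.3%), beside 20.3% of all genes. The median log2 change of the family was -0.01, and that of all genes was 0.00. The family thus had no common direction, with 15 members above 0 and 18 below. The SD between the 3 arrays of a group had a median of 0.11 in Atrx cKO and 0.08 in wildtype over the 33 members.

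**Figure D1:**
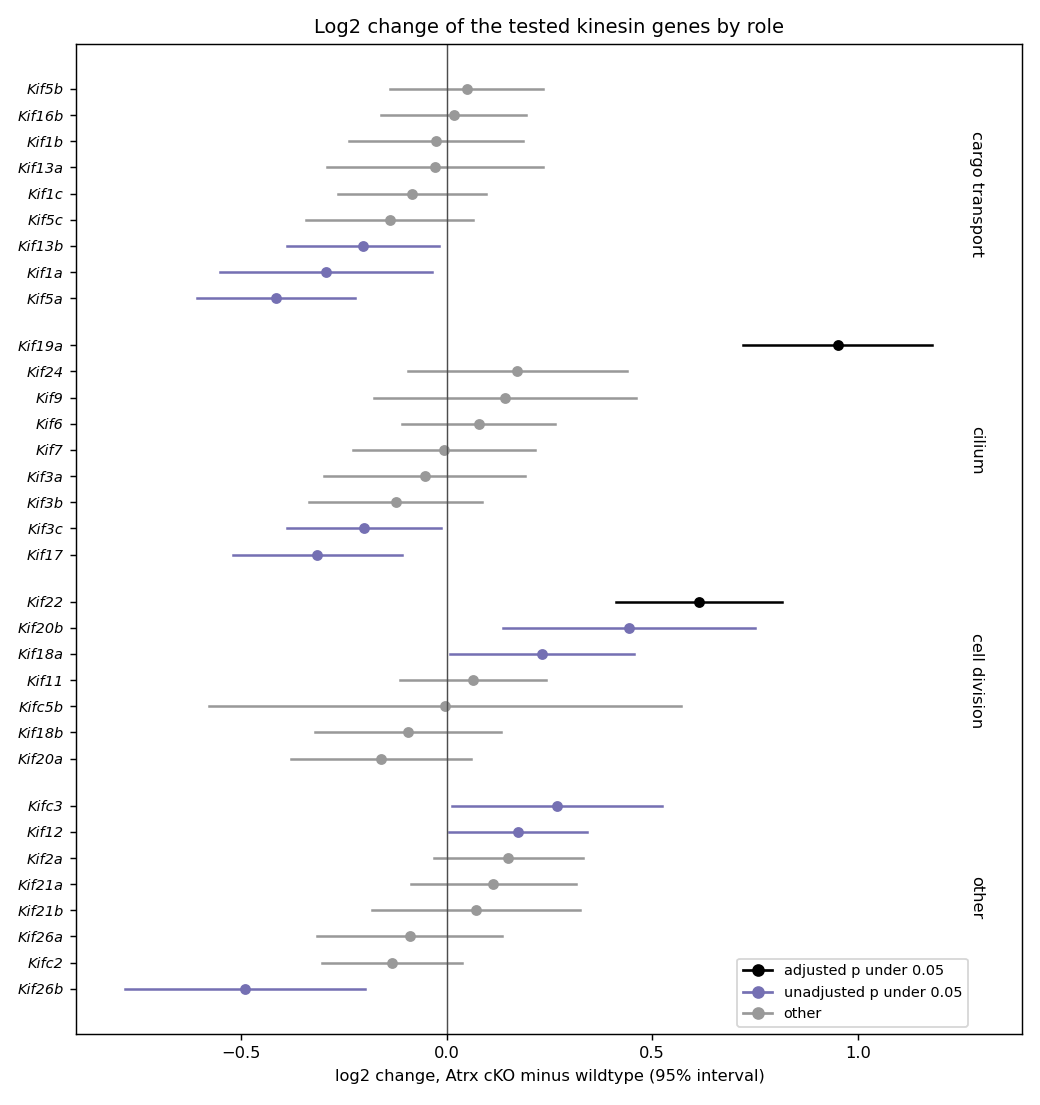
Log2 change (Atrx cKO minus wildtype, horizontal axis) with its 95% interval for the 33 tested kinesin genes, grouped by role down the page and coloured by test result. Kif19a at 0.95 and Kif22 at 0.61 stand to the right of all other members, and Kif26b at -0.49 and Kif5a at -0.42 lie farthest to the left.

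Rod markers were bright on all arrays, with a slightly higher mean on every Atrx cKO array, and lens RNA differed between arrays. The mean of 12 rod markers was 11.46 to 11.50 on the Atrx cKO arrays and 11.34 to 11.43 on the wildtype arrays. The mean of 15 tested lens genes was 10.12 on Atrx cKO replicate 2, against 5.85 and 6.28 on the other Atrx cKO arrays, and 11.33 on wildtype replicate 1, against 5.89 and 6.01 on the other wildtype arrays. Of the 33 members, 18 had their highest Atrx cKO value on replicate 2 (54.5%, beside 40.7% of all genes). On wildtype replicate 1, 9 had their highest wildtype value (27.3%, beside 26.3%). On wildtype replicate 2, which was not rich in lens RNA, 14 did (42.4%, beside 34.0%). Because lens RNA differed, results are given with and without the 2 lens-rich arrays where it matters. Atrx itself read 8.42, 8.72 and 8.33 in Atrx cKO, against 9.04, 8.86 and 9.17 in wildtype, a log2 change of -0.53 (SE 0.12, adjusted p = 0.115 in limma's test). Where its probes lie relative to the floxed exons was not examined.

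Among the kinesins of cell division, Kif22 rose and 6 other tested members were not called. Kif22, also called Kid, pushes chromosome arms away from the spindle poles. Its log2 values were 6.69, 6.55 and 6.72 in Atrx cKO, against 6.10, 5.92 and 6.10 in wildtype. The lowest Atrx cKO array lay above the highest wildtype array. The group means were 6.65 ± 0.09 in Atrx cKO and 6.04 ± 0.11 in wildtype (SD, n = 3 each), and the log2 change was 0.61 (SE 0.09, 95% interval 0.41 to 0.81, adjusted p = 0.020 in limma's test). The size held when any array was left out (0.55 to 0.66), but the call did not. Limma's adjusted p was 0.084 without Atrx cKO 1, 0.083 without Atrx cKO 3, 0.067 without wildtype 1, 0.109 without wildtype 2 and 0.087 without wildtype 3. Without both lens-rich arrays the log2 change was 0.69 (adjusted p = 0.073). RefSeq also lists a pseudogene, Kif22-ps, and whether the probes match it was not examined.

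Kif20b, a kinesin of the last step of cytokinesis, read 5.65, 5.52 and 5.10 in Atrx cKO, against 4.99, 4.95 and 5.00 in wildtype. The wildtype arrays lay at the filter floor, so the gene was tested because of its Atrx cKO values. The log2 change was 0.44 (SE 0.13, adjusted p = 0.207), and it was not called. With 1 array left out, the log2 change ran from 0.33 without Atrx cKO 1 (adjusted p = 0.402) to 0.60 without Atrx cKO 3, the lowest of its group (0.044). Limma's adjusted p was 0.269 to 0.517 without each of the others. Kif18a, which limits the length of kinetochore microtubules, read 6.40, 6.60 and 6.51 in Atrx cKO, against 6.41, 6.27 and 6.13 in wildtype. Those groups overlapped, and the log2 change was 0.23 (adjusted p = 0.356).

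The remaining tested division motors had smaller values. Kif11 (Eg5), which holds the spindle bipolar and is mutated in a human syndrome of small head and retinal disease, had a log2 change of 0.06 with a 95% interval of -0.11 to 0.24. Kif18b was at -0.09, Kif20a, a cytokinesis motor, at -0.16, and the minus-end motor Kifc5b at 0.00 with a wide interval of -0.58 to 0.57. Kifc5b and Kifc1 are near-identical copies, so their signals may not be separate. The group thus held 1 called gene of 7 (14.3%, beside 0.826% of all genes). An unadjusted p under 0.05 was reached by Kif22, Kif20b and Kif18a (42.9%, beside 13.5% of all genes). Kif20b entered the test through its Atrx cKO values and the dim Kifc1, which was lower in Atrx cKO, did not enter it, so the directions in this group are not read as a result.

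The promoters shown are those of Kif22 and Kif20b, the tested division kinesins with the largest log2 rises, of which Kif20b was not called. Both carry a cell cycle element that most division kinesins share. The element is the CHR, TTTGAA on either strand, through which repressor complexes keep division genes off in resting cells, and CCAAT is its frequent companion. RefSeq entries (GRCm38.p6) of 250 bases before to 50 after the gene start are printed in the direction of the gene, at chr7:127042371-127042670 on the minus strand for Kif22 and chr19:34922108-34922407 on the plus strand for Kif20b. Capitals mark both elements, on either strand.
Kif22: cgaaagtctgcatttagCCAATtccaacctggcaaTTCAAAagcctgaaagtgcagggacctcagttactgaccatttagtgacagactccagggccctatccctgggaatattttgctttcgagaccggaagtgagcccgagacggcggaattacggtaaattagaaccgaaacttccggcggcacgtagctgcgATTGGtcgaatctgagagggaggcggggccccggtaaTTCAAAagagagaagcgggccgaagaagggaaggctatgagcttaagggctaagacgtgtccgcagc
Kif20b: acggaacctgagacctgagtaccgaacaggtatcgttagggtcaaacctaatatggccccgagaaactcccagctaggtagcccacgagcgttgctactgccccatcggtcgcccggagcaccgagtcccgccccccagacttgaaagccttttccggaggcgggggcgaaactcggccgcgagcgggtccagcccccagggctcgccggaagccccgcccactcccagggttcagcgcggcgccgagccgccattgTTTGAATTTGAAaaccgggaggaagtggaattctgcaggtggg
In Kif22 a CHR begins 17 bases and a companion element 54 bases before the start, and a further pair lies 215 and 233 bases before it. In Kif20b there are 2 CHR matches that begin 7 and 13 bases after the start, and no companion element.

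TTTGAA was found in 11 of 12 promoter entries of the division kinesins (91.7%), against 3 of 25 entries of the other kinesins (12%) and 17.9% of all 32851 entries. The exception was Kif18a. CCAAT was found in 8 of those 12 entries (66.7%), in 9 of the 25 others (36%) and in 37.4% of all entries. Entries with the motif include Kif11, Kif18b and Kifc5b, whose log2 changes were near 0. A match describes these letters only, and the entries were not matched to the probes. Whether the element has a part in the expression values was not tested.

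Of the division kinesins, 6 were too dim to be tested. These were Kif2c, Kif4, Kif14, Kif15, Kif23 and Kifc1. With Kif2b, Kif27 and the pseudogene Kif4-ps they make up the 9 untested genes, whose values ran from 3.30 to 5.42. Kif23, a subunit of the centralspindlin complex of the cell midzone, read 4.57, 4.29 and 4.55 in Atrx cKO, against 4.25, 4.12 and 4.12 in wildtype. Kifc1 read 4.89, 4.35 and 4.78 in Atrx cKO, against 4.83, 5.42 and 5.13 in wildtype. With no filter, these were the 2 of the 9 with an unadjusted p under 0.05 in limma's test (log2 change 0.31 for Kif23 and -0.46 for Kifc1, adjusted p = 0.389 and 0.471). At such signals background limits the change that can be seen.

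Division genes outside the family included 2 called genes. Of 26 tested of the 37 listed, Bub1b and Racgap1 rose (7.69%, beside 0.826% of all genes). An unadjusted p under 0.05 was reached by 6 (23.1%, beside 13.5%), all above 0. These include Ckap2, which read 5.56, 5.27 and 5.31 in Atrx cKO, against 4.91, 5.08 and 4.89 in wildtype, and so passed the floor through its Atrx cKO values. The 9 listed genes that were too dim are not in these counts, and the median of the tested ones was 0.07, beside 0.00 for all genes. Racgap1, the partner of Kif23 in centralspindlin, read 6.83, 6.76 and 6.66 in Atrx cKO, against 6.06, 6.11 and 6.10 in wildtype (log2 change 0.66, SE 0.08, adjusted p = 0.010). Bub1b, a spindle checkpoint kinase, read 6.84, 6.69 and 6.62 in Atrx cKO, against 5.67, 5.95 and 5.91 in wildtype (log2 change 0.87, SE 0.10, adjusted p = 0.010). The call of Racgap1 was lost without wildtype 2 (adjusted p = 0.065) or wildtype 3 (0.055). Without both lens-rich arrays the adjusted p was 0.083 for Racgap1 and 0.060 for Bub1b. Cenpe, the kinesin-7 of the kinetochore that carries no Kif symbol, stood at a log2 change of 0.59 with an SE of 0.11 (adjusted p = 0.055).

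**Figure D2:**
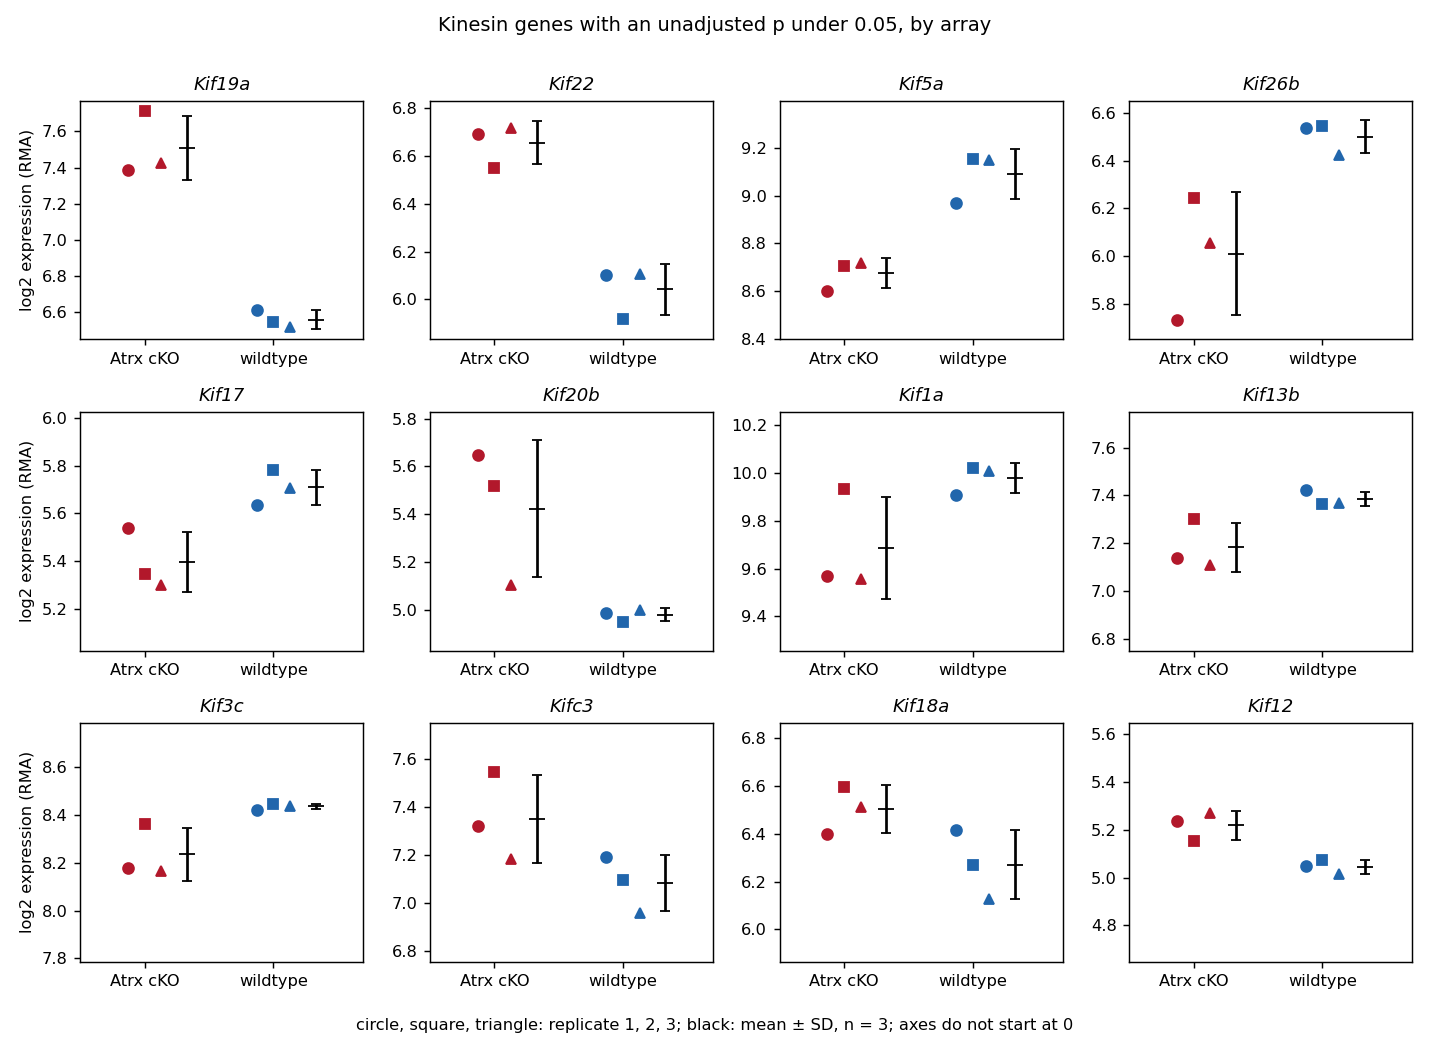
Log2 expression on each of the 6 arrays (vertical axis, not starting at 0) for the 12 kinesin genes with an unadjusted p under 0.05, with Atrx cKO in red, wildtype in blue, symbols for replicates, and the mean ± SD of 3 arrays in black. The groups are separate in the panels of Kif19a and Kif22, while Kif1a, Kifc3 and Kif18a overlap.

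Among the ciliary kinesins, Kif19a was the only called gene of 9 tested (11.1%, beside 0.826% of all genes). An unadjusted p under 0.05 was reached by Kif19a, Kif17 and Kif3c (33.3%, beside 13.5% of all genes). Kif19a sits at the tips of motile cilia and shortens their microtubules, and in mice it sets the length of cilia in the airway and brain ventricles. Its log2 values were 7.39, 7.71 and 7.43 in Atrx cKO, against 6.61, 6.55 and 6.52 in wildtype. Every Atrx cKO array lay well above every wildtype array. The group means were 7.51 ± 0.18 in Atrx cKO and 6.56 ± 0.05 in wildtype (SD, n = 3 each), with a log2 change of 0.95 (SE 0.10, 95% interval 0.72 to 1.18, adjusted p = 0.0071 in limma's test).

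The change of Kif19a stayed between 0.85 and 1.01 when any array was left out. The call was lost without wildtype 2, where limma's adjusted p was 0.051, and held without each other array. Without both lens-rich arrays the log2 change was 0.88 (adjusted p = 0.033). In RefSeq the end of Kif19a overlaps the gene Btbd17, whose own probe set read 5.92, 5.38 and 5.48 in Atrx cKO, against 5.62, 5.71 and 5.53 in wildtype (log2 change -0.03). The values of Btbd17 overlapped between the genotypes, lay not far above the filter floor, and left a 95% interval of -0.34 to 0.29. Whether this gene adds to the Kif19a signal was not tested.

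The kinesin-2 motors of the cilium had log2 changes at or below 0. Kif3a and Kif3b pair to drive transport from the base to the tip of the cilium, which photoreceptors need to survive. Kif3a read 8.42, 8.49 and 8.14 in Atrx cKO, against 8.43, 8.31 and 8.48 in wildtype, with a log2 change of -0.05 and a 95% interval of -0.30 to 0.19. Kif3b was at -0.12 (-0.33 to 0.09). Both sets of arrays overlapped, and a change of Kif3a as large as that of Kif19a lies outside its interval.

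Kif17, a homodimeric kinesin-2 that works in cilia and dendrites, read 5.54, 5.35 and 5.30 in Atrx cKO, against 5.64, 5.78 and 5.71 in wildtype. Every Atrx cKO array was below every wildtype array, and the log2 change was -0.31 (SE 0.09, adjusted p = 0.185). Kif3c, a kinesin-2 subunit enriched in neurons, read 8.18, 8.36 and 8.17 in Atrx cKO, against 8.42, 8.45 and 8.44 in wildtype (log2 change -0.20, adjusted p = 0.338). A second probe set that carries the symbol of Kif3c together with 1110002L01Rik went the other way. It read 8.90 to 9.07 in Atrx cKO, against 8.72 to 8.86 in wildtype, a log2 change of 0.20 when all probe sets were fitted (adjusted p = 0.461), and it is not counted among the members.

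The other tested members of the group were Kif7, a regulator of Hedgehog signalling at the cilium tip, Kif24, which restrains cilium assembly at the centriole, Kif6 and Kif9. Their log2 changes were -0.01, 0.17, 0.08 and 0.14, with adjusted p from 0.559 to 0.987. Kif7 has a second, dimmer probe set at -0.34, so its probe sets differ in size. Kif27, a relative of Kif7, had both of its probe sets below the filter.

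The intraflagellar transport complexes, the cargo trains of kinesin-2, had no called gene. Of 28 tested of the 30 listed, 22 were above 0 and the list median was 0.07, beside 50.9% of all genes above 0. An unadjusted p under 0.05 was reached by 4 of them (14.3%, beside 13.5% of all genes), all above 0. The largest evidence was for Dync2li1, a light intermediate chain of the return motor (log2 change 0.31, adjusted p = 0.161), and Ttc26 (0.38, adjusted p = 0.162). The list mean was 7.92, 7.90 and 7.78 in Atrx cKO, against 7.75, 7.74 and 7.83 in wildtype, and these ranges overlapped.

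Among the cargo motors of kinesin-1 and kinesin-3 no gene was called, beside 0.826% of all genes. Of 9 tested, 7 were below 0 and 2 above, beside 50.9% of all genes above 0. The median log2 change was -0.08, beside 0.00 for all genes. An unadjusted p under 0.05 was reached by Kif5a, Kif1a and Kif13b, all below 0 (33.3%, beside 13.5% of all genes). Kif5a, the kinesin-1 heavy chain restricted to neurons and mutated in human hereditary spastic paraplegia, read 8.60, 8.70 and 8.72 in Atrx cKO, against 8.97, 9.15 and 9.15 in wildtype. The highest Atrx cKO array lay below the lowest wildtype array. The log2 change was -0.42 (SE 0.08, 95% interval -0.61 to -0.22, adjusted p = 0.079 in limma's test). Without both lens-rich arrays it was -0.49 (adjusted p = 0.146). It passed with a log2 floor of 6 (adjusted p = 0.041) and with a trended, robust estimate of the spread (0.022), and under the other alternatives limma's adjusted p was 0.059 to 0.322.

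The other heavy chains of kinesin-1 were closer to 0. Kif5b, which nearly all cells make, read 9.46, 9.53 and 9.38 in Atrx cKO, against 9.44, 9.32 and 9.46 in wildtype, with a log2 change of 0.05 (95% interval -0.14 to 0.24). Kif5c, also enriched in neurons, read 9.46, 9.56 and 9.32 in Atrx cKO, against 9.58, 9.52 and 9.66 in wildtype, with a log2 change of -0.14 (-0.34 to 0.06). The arrays of both genes overlapped between the genotypes.

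The within-array difference between 2 heavy chains was compared between genotypes for the 3 pairs. Kif5a minus Kif5b was -0.86, -0.83 and -0.66 in Atrx cKO, against -0.47, -0.17 and -0.32 in wildtype. That is a shift of -0.47, and the groups did not overlap (exact 2-sided permutation p = 0.1, the smallest that 3 against 3 arrays allow, adjusted p = 0.15 over the 3 pairs). Kif5c minus Kif5b shifted by -0.19 with the same exact p of 0.1 (adjusted 0.15), and Kif5a minus Kif5c by -0.28 (exact p = 0.2). No pair could pass a threshold of 0.05 in this design.

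In kinesin-3, Kif1a carries synaptic vesicle precursors along axons. It read 9.57, 9.93 and 9.56 in Atrx cKO, against 9.91, 10.02 and 10.01 in wildtype. Atrx cKO replicate 2, a lens-rich array, reached the lowest wildtype value, so the groups overlapped. That wildtype value was on replicate 1, the other lens-rich array. The log2 change was -0.29 (SE 0.11, adjusted p = 0.310), and -0.42 without Atrx cKO 2 (adjusted p = 0.069). Without both lens-rich arrays it was -0.45 (adjusted p = 0.152 in limma's test). Over all alternatives limma's adjusted p was 0.069 to 0.632. Kif1b, a motor of mitochondria and synaptic vesicles, read 10.39, 10.64 and 10.48 in Atrx cKO, against 10.48, 10.46 and 10.63 in wildtype, a log2 change of -0.03 (95% interval -0.24 to 0.18).

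Kif13b read 7.14, 7.30 and 7.11 in Atrx cKO, against 7.42, 7.37 and 7.37 in wildtype. The groups were separate with a small log2 change of -0.20 (adjusted p = 0.327). The log2 changes of Kif13a, Kif16b and Kif1c were -0.03, 0.02 and -0.08, each with a 95% interval that held 0. Kif16b moves early endosomes, and Kif13a carries recycling endosomes. A second probe set of Kif5b was below the filter, at 4.36 to 4.74 in Atrx cKO and 4.42 to 4.61 in wildtype.

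The means of the amacrine and of the horizontal cell markers were lower on every Atrx cKO array than on any wildtype array. All 13 tested amacrine markers were below 0, 6 of them called as lower (46.2%, beside 0.346% of all genes). Their mean was 7.33, 7.51 and 7.19 in Atrx cKO, against 7.86, 7.89 and 7.98 in wildtype. Of 7 tested horizontal cell markers 5 were below 0 and none was called, with an unadjusted p under 0.05 for 3 below 0 and 1 above (57.1% in all, beside 13.5% of all genes). Their mean was 7.23, 7.21 and 7.06 in Atrx cKO, against 7.28, 7.31 and 7.33 in wildtype, lower on every Atrx cKO array. The part of these cell types in the values of Kif5a, Kif1a and Kif17 was not tested. In RNA of whole retina, fewer cells of a type and less RNA per cell cannot be told apart. Of 10 tested ganglion cell markers none was called, and their mean was 8.98 to 9.08 in Atrx cKO and 9.07 to 9.12 in wildtype. An unadjusted p under 0.05 was reached by 2 of them, both below 0 (20%). Such a p was also reached by 40% of Muller glia and 30% of cone markers, each on both sides of 0. For bipolar markers it was 14.3%, and for rod markers 16.7%. Of 10 tested cone markers 1 was called, as higher (10%, beside 0.48% of all genes).

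**Figure D3:**
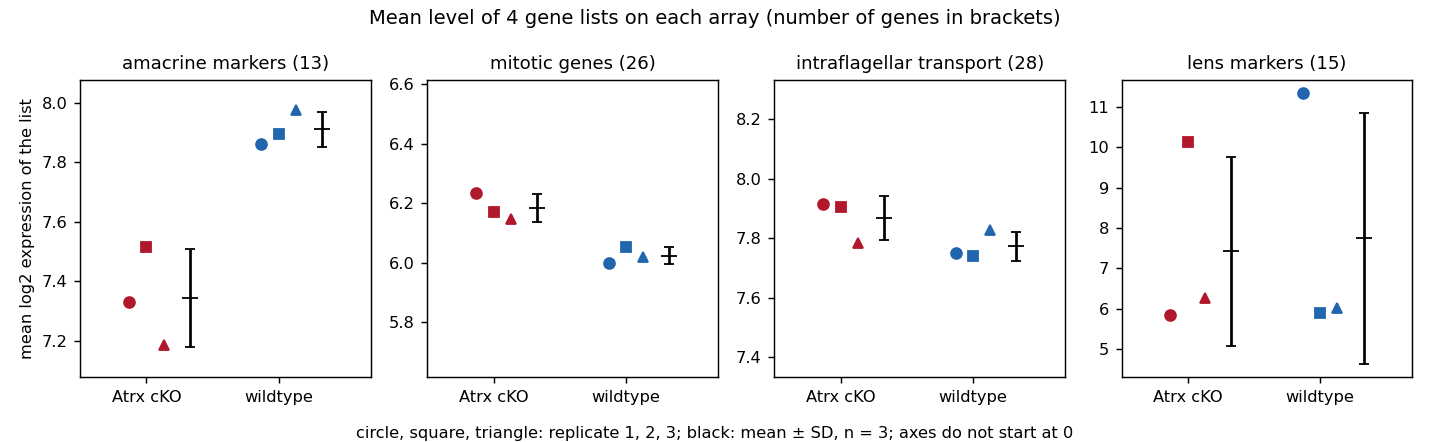
Mean log2 expression of 4 gene lists on each array (vertical axes, not starting at 0), with Atrx cKO in red, wildtype in blue, symbols for replicates, and the mean ± SD of 3 arrays in black. Amacrine markers lie lower on all Atrx cKO arrays (7.19 to 7.51) than on the wildtype arrays (7.86 to 7.98), and lens markers are high on 1 array of each genotype.

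The remaining members regulate microtubules, walk to the minus end or have no settled motor role, and none of the 8 tested was called. Kif26b, which lacks the usual motor activity and is known from kidney development in mice, read 5.73, 6.24 and 6.05 in Atrx cKO, against 6.54, 6.55 and 6.42 in wildtype. All Atrx cKO arrays were lower, with a log2 change of -0.49 (SE 0.13, adjusted p = 0.146), the lowest of the family. Kifc3, a minus-end motor of cell junctions, read 7.32, 7.55 and 7.18 in Atrx cKO, against 7.19, 7.10 and 6.96 in wildtype (log2 change 0.27, adjusted p = 0.350). Kif12 read 5.24, 5.15 and 5.27 in Atrx cKO, against 5.05, 5.07 and 5.02 in wildtype (log2 change 0.17, adjusted p = 0.356). Its values lay just above the filter floor.

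The bright members of this group had log2 changes nearer to 0. Kif21a, mutated in a human disorder of eye muscle innervation, read 9.29, 9.45 and 9.25 in Atrx cKO, against 9.22, 9.13 and 9.30 in wildtype (log2 change 0.11, 95% interval -0.09 to 0.31). Kif21b, which limits microtubule growth in neurons, read 9.08, 9.49 and 9.19 in Atrx cKO, against 9.18, 9.18 and 9.19 in wildtype. Its log2 change of 0.07 was -0.05 without Atrx cKO 2. Kif2a, which depolymerises microtubules and prunes axon branches, was at 0.15 (-0.03 to 0.33), the dendritic motor Kifc2 at -0.13 (-0.30 to 0.04) and Kif26a at -0.09.

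Genes that work with cargo kinesins also had no called member. Among 24 tested genes listed as light chains and adaptors the median log2 change was -0.04. On each side of 0, 3 had an unadjusted p under 0.05 (25% in all, beside 13.5% of all genes). Cenpe, which this list shares with the division genes, is itself a motor and not an adaptor. It had the smallest p and is 1 of the 3 above 0. The synaptic scaffold Ppfia2 followed (0.31, adjusted p = 0.211). Among 21 subunits of dynein and dynactin, the motor complex that runs the opposite way, the median was 0.03 and 4.76% had such a p. Its heavy chain Dync1h1 was at -0.30 (adjusted p = 0.292) and the intermediate chain Dync1i2 at 0.17 (0.396). Of 31 tested tubulins and microtubule-associated proteins, 5 had an unadjusted p under 0.05, all below 0. That is 16.1%, near the 13.5% of all genes. The smallest p values were those of Tuba8 at -0.46 (adjusted p = 0.090) and Tubb4a at -0.37 (0.093).

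**Figure D4:**
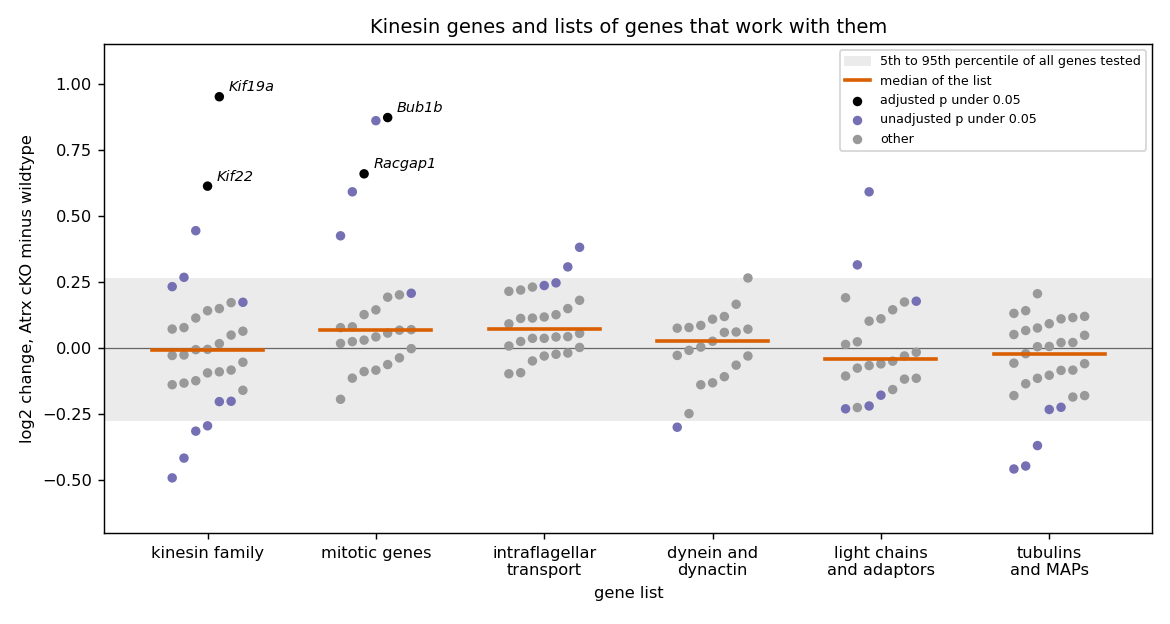
Log2 change (Atrx cKO minus wildtype, vertical axis) of each tested gene in the kinesin family and in 5 lists of genes that work with it, with list medians in orange and the 5th to 95th percentile of all tested genes in grey. The called genes, named in the plot, are Kif19a, Kif22, Bub1b and Racgap1, and list medians lie between -0.04 and 0.07.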

How the data were processed

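Total retina RNA of 6 mice, 3 Atrx cKO and 3 wildtype, was measured on 1 array each. The values are log2 expression per probe set, deposited by the authors, and the submitters' processing notes name RMA. The sources used here give neither its version nor a genome build. RMA equalises array distributions, so a change in total RNA would not be seen, and dim probe sets have compressed changes.

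Genes were named from probe sets with 1 symbol in the platform annotation. All 42 family genes matched RefSeq (GRCm38.p6) by gene ID. A probe set needed a log2 value of at least 5 on at least 3 arrays, and the brightest probe set stood for a gene, which left 15619 genes. Probe set levels do not rank genes by transcript. Limma 3.58.1 in R 4.3.3 (lmFit, eBayes, genotype as the only term, 2-sided) tested all of them, with Benjamini-Hochberg adjustment over the table. The 3 arrays per group limit precision (median SE 0.095). Labels do not say whether littermates came from 1 litter, so p-values measure the spread between these mice.

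Members, role groups, 5 partner lists and marker lists were chosen with earlier results of these data known, as were the alternatives, which include leaving out the lens-rich arrays. The comparisons of kinesin-1 heavy chains and the promoter motifs were chosen after values were seen. Full values were given for called genes, those with an unadjusted p under 0.05 and the brightest pair of each role group; of partner lists, the called genes or otherwise the pair with the smallest p were named. The procedure was tested on simulated data. Figures used matplotlib 3.10.9.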

Additional observations from a re-analysis of the deposited data

How the results depend on the processing

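Of 720 repeats over 43 named genes, 673 kept direction and side of the threshold. Most of these genes were not called in the main fit, so this total says little about the calls. Of 17 repeats each, the call held in 16 for Kif19a, 9 for Kif22, 16 for Bub1b and 14 for Racgap1. The kinesin count of 2 became 1 with no filter on dim probe sets, with all probe sets tested and without the lens-rich arrays. It became 3, with Kif5a, with a floor of 6, with an intensity trend and robust spread and at an adjusted p under 0.1, and ran from 0 to 2 when 1 array was left out. The 0 was without wildtype 2, where 7 kinesins had an unadjusted p under 0.05 in limma's test. Without Atrx cKO 3 the 2 were Kif19a and Kif20b. Of the runs with 1 array left out, only that without Atrx cKO 2 kept both Kif19a and Kif22. The partner gene count of 2 became 5 with a floor of 6, 5 with the trend, 6 at an adjusted p under 0.1 and 0 without the lens-rich arrays, where 18 had an unadjusted p under 0.05; it ran from 1 to 4 with 1 array left out. The count over all genes, 129, became 74 with no filter, 209 with a floor of 6, 282 with the trend, 74 over all probe sets, 36 without the lens-rich arrays and 288 at 0.1, and ran from 25 to 141 with 1 array left out. The call of Kif22 was also lost with no filter (adjusted p = 0.059) and over all probe sets (0.072).

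With the replicate number as a block, 68 genes were called, and Kif19a (adjusted p = 0.022) and Kif22 (0.0496) remained. Same-numbered arrays did not deviate together (correlations of -0.27, -0.38 and -0.06), and no array correlated best with its own number. The highest correlation (0.39) was between Atrx cKO 2 and wildtype 1, the lens-rich arrays. Lens RNA enters these correlations, so they cannot decide whether the numbers pair the mice.

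Members near 0 changed sign. Without the lens-rich arrays Kif16b was at -0.0027, Kif21b at -0.049, Kif26a at 0.0022, Kif7 at 0.10, Kif9 at -0.016 and Kifc5b at 0.33. With a second quantile normalization Kif16b was at -0.0095 and Kifc5b at 1.58e-05, and with array weights Kif7 was at 0.022 and Kifc5b at 0.069. With 1 array left out, Kif13a ran from -0.133 to 0.0566, Kif16b ran from -0.0152 to 0.0656, Kif1b ran from -0.0937 to 0.0301, Kif21b ran from -0.0475 to 0.162, Kif26a ran from -0.143 to 0.00624, Kif3a ran from -0.123 to 0.0517, Kif7 ran from -0.0769 to 0.0807, Kif9 ran from -0.0113 to 0.221 and Kifc5b ran from -0.217 to 0.279. The cause of these shifts was not tested.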
